A study of Pyrus communis with 12 samples.

Results

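The genes described here are those whose transcript level fell at every harvesting stage of the pear cultivar 'Abate Fetel'. They are 73 of the 45217 genes in the table. Flesh of fruit still on the tree was collected at 4 harvesting stages, H1 to H4, which the labels call harvest weeks 1 to 4 and the study places at 120, 127, 140 and 147 days after full bloom. Each stage has 3 biological replicates, with 1 RNA-seq library each, and no treatment was given to these fruit. From a large random harvest, the study kept fruit of the most common chlorophyll absorbance class of each stage, which was a different class at each of them, so that each stage stands for its typical fruit and not for the whole range on the trees. How many fruit were pooled in a replicate, and whether the stages were extracted and sequenced together, is not given in the sources used here, so that the stage and such a batch cannot be told apart.

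Members were chosen on the level in CPM, the count of a gene divided by the total count of its library and multiplied by 1000000. A member had a mean of at least 1 CPM in H1. Its mean at each later stage was at least 1.2 times lower than at the stage before, and the highest library of each stage lay below the lowest library of the preceding one. Genes that held at least 1 CPM up to H3 and then dropped sharply, with their highest H4 library at or under the lowest earlier one divided by 2, were left out. This last condition removed 12 of 85 genes. Because all 12 libraries were used for the choice, the levels of the members and their differences between stages are given as a description and were not tested.

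Pear is a climacteric fruit, in which ripening is driven by a burst of the gaseous hormone ethylene. Before that burst the fruit matures on the tree. Chlorophyll is lost, starch is converted to sugars, the cell walls begin to loosen, and the genes that served cell expansion and growth are turned down. Auxin, a growth hormone made largely in the seeds, is known to delay the competence to ripen in several fruit, and a slow decline of auxin-related transcripts during maturation has been described in such species. A steady fall over the whole harvest window is therefore a pattern of interest, but its use to follow maturity was not tested here.

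The identifiers of the table are those of the first Pyrus communis gene set and stand without gene names. The RefSeq table of the newer assembly drPyrComm1.1 uses other identifiers and matched 0 of the 45217, members and other genes alike. RefSeq transcript accessions that a supplement of the paper sets beside many identifiers carry no gene names there and were not used here. A list of 42 named genes, described at the end, holds no member. No function is assigned here to any member. For the same reason the labelled tissue, fruit flesh, could not be checked against marker genes. In RNA from whole flesh, fewer cells of a type and less RNA per cell cannot be told apart.

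The libraries held 7776419 to 10675582 counts, with the deepest 3 in H4, and 3 counts corresponded to 0.281 to 0.386 CPM. A stage in which all libraries of a gene were at or under 3 counts was set to 3 counts per library, and a fold change against it is a lower bound. The H4 libraries also differed in composition. Over the 22245 genes with a mean of at least 1 CPM in H1, the median log2 change was 0.01 at H1–H2 and -0.0006 at H2–H3, but -0.10 at H3–H4. This is a median over genes chosen on their H1 level and not a change that every gene shares. The falls of the members at H3–H4 in CPM were not corrected for it. With the TMM scaling of edgeR, the median change at H3–H4 over the 23155 genes tested was -0.004.

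The median level of the 73 members was 15.7 CPM in H1, 12.1 in H2, 7.94 in H3 and 5.29 in H4. In H1 this was about the level of a usual transcript, since the median over the 22245 genes was 16.04 CPM. The least abundant member had 1.89 CPM in H1 and the most abundant 2124 CPM. The pattern was thus found over a wide range of abundance, though not up to the highest level of the 22245 genes, 12985 CPM. In the H1 libraries the members held 13 to 20117 counts each, and in the H4 libraries 0 to 9977. The H1 libraries had a summed level of the members of 5483, 5716 and 5246 CPM. It was 4346, 4160 and 4213 CPM in the H2 libraries, 3173, 3364 and 3314 CPM in those of H3, and 2335, 2125 and 2245 CPM in those of H4. By H4 the sum was 40.8% of its H1 value. No library of a stage reached the sums of a neighbouring stage, as the choice of the members requires of each of them.

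**Figure D1:**
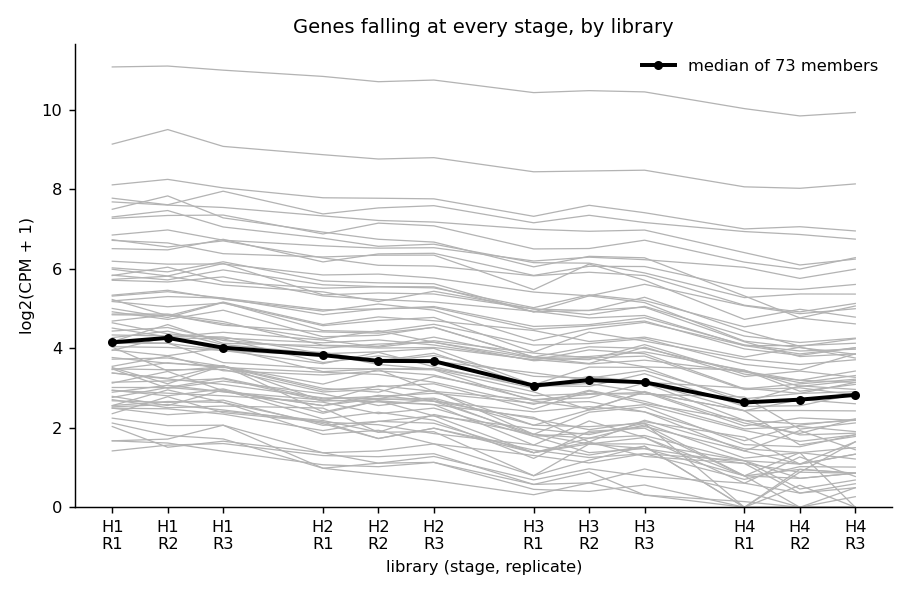
Level of each of the 73 members (grey lines) and their median (black) as log2(CPM + 1) in the 12 libraries, ordered by harvesting stage and replicate. The lines decline over a wide range of levels and with different slopes, and the median is between 4.01 and 4.26 in the H1 libraries and between 2.64 and 2.83 in the H4 libraries.

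The most abundant member was PCP000331. Its transcripts reached 2152, 2186 and 2035 CPM in the H1 libraries. The level was 1825, 1664 and 1713 CPM at H2, 1375, 1424 and 1393 CPM at H3, and 1041, 916 and 973 CPM at H4, with no overlap between any stages. All 12 values rested on at least 9587 counts, and the replicates had an SD of 24.4 to 82.5 CPM (n = 3 per stage). The stage means were 1.23 times lower in H2 than in H1, 1.24 times lower in H3 than in H2 and 1.43 times lower in H4 than in H3, which amounts to 2.18 times over the whole window. This gene alone made up 38.2 to 44.6% of the summed level of the members. Without it the sum in H4 was 37.5% of that in H1. Since every member was chosen for its fall, the sum without this gene had to decline too.

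Among the 69 members with a library above 3 counts at every stage, the largest fall was that of PCP032878, from the low end of abundance. At H1 it had 4.89, 5.33 and 5.22 CPM. At H2 the libraries held 2.56, 2.83 and 2.02 CPM, at H3 0.734, 1.27 and 1.90 CPM, and at H4 0, 0.468 and 0 CPM. The H4 values are 0, 5 and 0 counts. In sum, 5 counts in H4 stood against 128 in H1. The H4 mean in CPM was 32.9 times lower than the H1 mean, a value that rests on these 5 counts. This H4 mean, 0.156 CPM, lay under the 0.281 to 0.386 CPM of 3 counts. It was not set to the floor because 1 library exceeded 3 counts. From pooled counts over library totals the ratio was 31.04, with a 95% interval of 12.96 to 97.23, so the size of the fall is uncertain. In H2 the mean was 2.08 times lower than in H1, and that of H3 was 1.90 times lower than that of H2. The last step was the largest, at 8.34 times and 60.7% of the log2 fall, and it rests on the same 5 counts. The gene was not left out as a sharp drop because its lowest H3 library was only 1.57 times its highest H4 library.

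**Figure D2:**
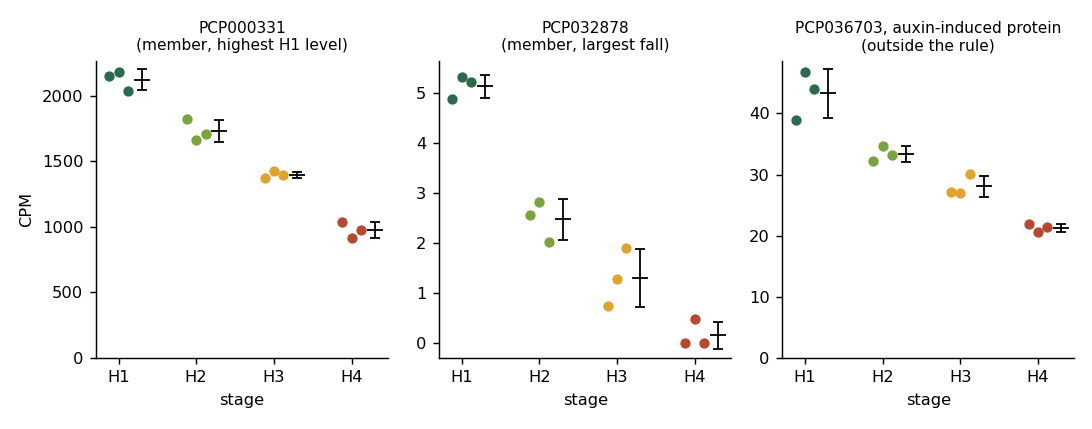
CPM of 3 genes in the 3 libraries of each stage (coloured points), with the stage mean and SD (black bars, n = 3). PCP000331 and PCP032878 step down at each stage with no overlap of libraries, while PCP036703, an auxin-induced protein that is not a member, shows the same order of stages with a smaller step between H2 and H3.

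Over the whole window, the median member was 3.27 times lower in H4 than in H1, and the falls ranged from 1.90 to 32.9 times. The upper end is the value of PCP032878, which rests on 5 counts in H4. The median log2 change of H4 over H1 was -1.71 for the members, against -0.09 over the 22245 genes at 1 CPM or more in H1. Of the 73 members, 71 fell by more than 2 times, 27 by more than 4 times and 8 by more than 8 times. In 18 members the H4 mean was under 1 CPM. In 4 of these all H4 libraries were at or under 3 counts, and these genes, with 1.89 to 2.71 CPM in H1, were at least 6.30 to 9.05 times lower in H4. In 2 of the 4 the H4 count was 0 in every library, after 13 to 25 counts per library in H1, 8 to 13 in H2 and 2 to 8 in H3.

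The size of the fall differed with abundance. The 10 members with at least 100 CPM in H1 had a median of 190.3 CPM in H1, 140.1 in H2, 109.3 in H3 and 72.6 in H4. They fell by 1.90 to 5.75 times, with a median of 2.27, and 1 of them by more than 4 times. The 37 members between 10 and 100 CPM fell by 2.09 to 5.70 times (median 2.90). Among the 26 members under 10 CPM, the falls were 2.51 to 32.9 times with a median of 6.44, and 20 of them exceeded 4 times. A gene with few counts passes the condition of separate libraries only if its steps are large, so the choice of the members enters this relation. It also enters through the sharp drops at H4, which were left out only among genes with at least 1 CPM up to H3. The 12 genes left out had 3.94 to 1842 CPM in H1, while 5 members with an H2 or H3 mean under 1 CPM were exempt. The part of the choice in this relation was not tested.

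**Figure D3:**
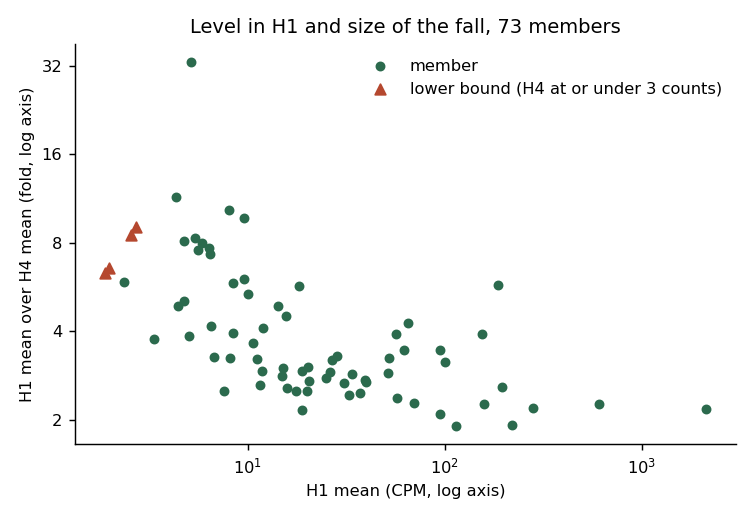
H1 mean in CPM (x, log axis) and H1 mean over H4 mean as a fold (y, log axis) for the 73 members, with the 4 members at the counting floor in H4 drawn as lower bounds (triangles). Members under 10 CPM reach falls of up to 32.9 times, whereas those at or above 100 CPM lie between 1.90 and 5.75 times. The highest value, that of PCP032878, rests on 5 counts in H4.

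The 3 transitions did not contribute equally. In the 69 members with a library above 3 counts at every stage, the median fold was 1.36 at H1–H2, 1.42 at H2–H3 and 1.69 at H3–H4. As a share of the whole log2 fall, the median was 26.1% at H1–H2, 29.7% at H2–H3 and 43.1% at H3–H4. Computed for each replicate number alone, the median shares had an SD of 2.28, 6.72 and 6.72 percentage points (n = 3). For each number only members above 3 counts at every stage in its own libraries were used, so the set of genes differed. The largest step was that of H3–H4 in 52 of the 69 members, of H2–H3 in 9 and of H1–H2 in 8. The same count over all genes was not made. Falls of at least 1.2 times with separate libraries were shown by 8.03, 6.74 and 19.9% of the 22245 genes at these transitions in order of time. The rule also left out sharp drops at H4, which limits the last step. The median shift over the 22245 genes at H3–H4 in CPM was not taken out of this last step. With the TMM scaling the median total log2 change was -1.62, and the median shares were 28.3, 31.2 and 39.9%.

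The days between the stages were unequal, with 7 days for H1–H2, 13 for H2–H3 and 7 for H3–H4. Expressed per day, the median log2 change was -0.06 at H1–H2, -0.04 at H2–H3 and -0.11 at H3–H4. The slowest of the 3 intervals was H2–H3 in 59 of the 69 members, H1–H2 in 9 and H3–H4 in 1. The interval from H2 to H3 was the fastest per day in none of the 69 members, the one from H1 to H2 in 8 and the last one in 61. This slower middle interval rests on the dates of the study. The labels give consecutive weeks, and over equal weeks the middle step is the intermediate one of the 3 medians. The counts of slowest and fastest intervals were not made over all genes, so they are not read as a trait of the members.

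**Figure D4:**
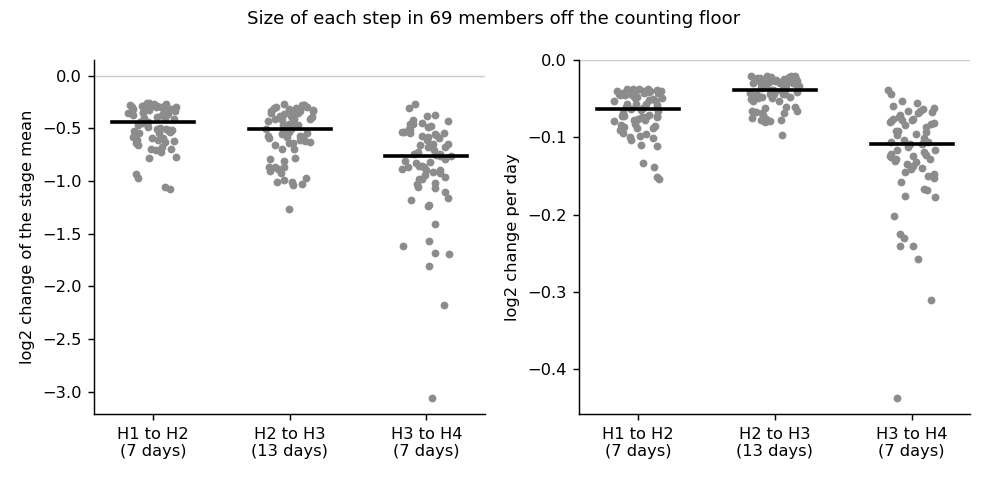
Log2 change of the stage mean at each transition (left) and the same change divided by the days between the stages (right) in 69 members (grey points), with the median as a black line. The medians per day are -0.06, -0.04 and -0.11, and the widest scatter is at H3–H4.

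Members with a different largest step differed in the course of their decline. The 8 with the largest step at H1–H2 lost a median of 41.3% of their log2 fall there, and 26.9% and 33.6% at the following transitions. Their whole fall was 1.90 to 6.01 times, and their H1 levels ranged from 3.35 to 606.7 CPM. In the 9 with the largest step at H2–H3, the median share of that step was 40.02%, with falls of 2.27 to 7.65 times. The 52 with the largest step at H3–H4 had a median share of 46.4% there and falls of 1.92 to 32.9 times. These 3 classes were formed from the values themselves. A steeper group of 16 members met the rule even with steps of at least 1.5 times. These had 1.97 to 154.4 CPM in H1 (median 5.49) and were 3.93 to 32.9 times lower in H4, with 3 of them given at their lower bound.

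Each condition can be followed through the 22245 genes with at least 1 CPM in H1. A fall of at least 1.2 times with separate libraries was shown by 1787 genes (8.03%) at H1–H2, 1500 (6.74%) at H2–H3 and 4422 (19.9%) at H3–H4. The means alone fell by at least 1.2 times at all 3 transitions in 331 genes, and the libraries were separate at each of them in 85, from which the 12 sharp drops were taken. These 12 went through medians of 18.5, 11.5, 5.03 and 1.62 CPM from H1 to H4. A further 120 genes missed 1 of the 7 conditions on level, steps and separation. Most often this was the separation at H3–H4 or the step at H2–H3, with 29 genes each. The thresholds on step and separation had genes close on both sides. The smallest step of a member was 1.2003 times and the nearest gene outside had 1.1995, and the closest libraries of neighbouring stages had a ratio of 1.003 inside and 0.999 outside. The threshold on the sharp drop lay between values farther apart. The largest ratio of the lowest earlier library to the highest H4 library was 1.78 among the members with at least 1 CPM up to H3, and the nearest gene left out had 2.15.

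The separation of the stages was in most members narrow relative to the fall. The ratio of the lowest H1 to the highest H2 library had a median of 1.14 over the members, that of H2 to H3 1.17 and that of H3 to H4 1.27. The replicates of a member varied with a median coefficient of variation of 9.04% in H1, 7.51% in H2, 11.9% in H3 and 12.6% in H4, compared with 11.2, 8.21, 8.53 and 8.72% over the 22245 genes. The H3 and H4 values of the members come from fewer counts than those of H1.

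When all genes were tested with the quasi-likelihood test of edgeR and a threshold of 0.05 on the Benjamini-Hochberg adjusted p-value, 25 of the 73 members were called lower in H2 than in H1, where 3.17% of the 23155 genes tested were lower. For H3 against H2, 31 members were called lower, with 2.36% of all genes, and for H4 against H3, 56 members, with 9.51%. All 73 were called lower in H4 than in H1, where the share of all genes was 16.4%. The rule used these same contrasts, so that the counts describe how the choice and the test overlap and nothing is read from them. By transition, 16 members were called at all 3 transitions, 20 at 2 of them, 24 at 1 and 13 at none. Conversely, 24 genes of the whole table were called lower at all 3 transitions, of which 16 were members, 5 had been left out for the sharp drop at H4 and 3 belonged to neither. Counts at single transitions depended on the libraries. Without H1 replicate 1 the number called at H1–H2 was 15, with 2.21% of all genes, and without any one of the H2 libraries it was 16, with 1.88 to 2.01% of all genes. At H2–H3 it was 15 without H2 replicate 1 or H3 replicate 1 (1.24 and 1.43% of all genes), 17 without H2 replicate 2 or H2 replicate 3 (1.36 and 1.27%), and 19 without H3 replicate 3 (1.42%). At H3–H4 it was 37 without H3 replicate 3, with 7.01% of all genes. The share over all genes was lower in each of these fits as well.

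Libraries that did not take part in the choice give a measure of how far the pattern repeats. For this, the whole rule was applied to replicates 1 and 2 of each stage, and replicate 3 was read as it stood. The rule chose 147 genes, of which 65 are among the 73 members. In the held-out replicate, 40 of them (27.2%) fell by at least 1.2 times at all 3 transitions, against 1.36% of the 22203 genes at 1 CPM or more in H1. A fall of any size at all 3 was found in 103 (70.1%), against 12.6%. The H4 value lay below the H1 value in 146 of the 147, against 57.4%.

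The share was higher with the other replicate numbers held out. With replicate 1 held out, 113 genes were chosen, of which 42 (37.2%) fell by at least 1.2 times at all 3 transitions, against 1.51% of all genes. With replicate 2 held out, it was 40 of 107 genes (37.4%), against 1.61%. A fall of any size at all 3 transitions was seen in 71 (62.8%) and 74 (69.2%) of these, against 10.1% and 10.6%, and H4 lay below H1 in all 113 and all 107, against 58.1% and 56.5%. The single transition with the fewest falls of at least 1.2 times in held-out replicate 3 was H2–H3, with 87 of 147 genes (59.2%), against 15.9% of all genes, and that with the most was H3–H4, with 130 (88.4%), against 34.3%. With replicate 1 held out, H2–H3 had the most, with 90 of 113 genes (79.6%), against 18.5%, and H3–H4 the fewest, with 77 (68.1%), against 27.2%. Across the held-out replicates, H4 below H1 therefore repeated in all chosen genes but 1, and the full course at the step of 1.2 times in fewer than 4 in 10.

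**Figure D5:**
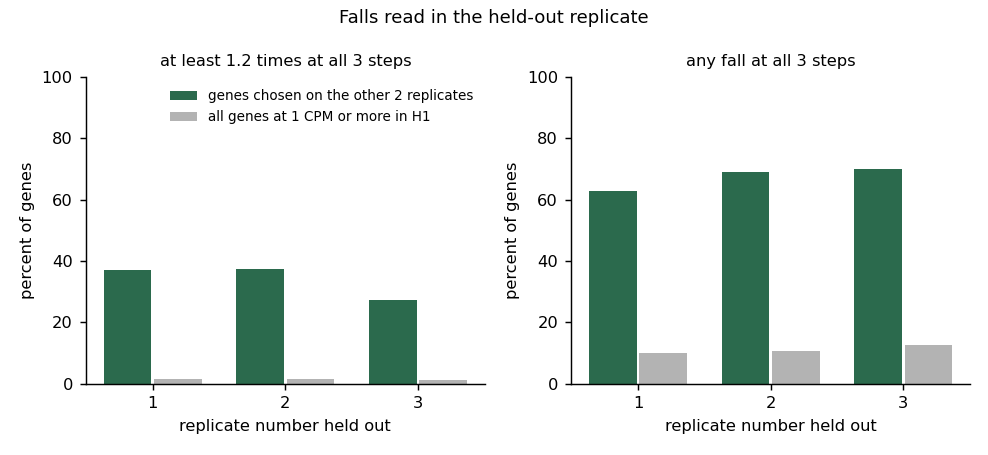
Percent of genes that fell by at least 1.2 times at all 3 transitions (left) or by any amount at all 3 (right) in a replicate number that the choice did not use, for genes chosen on the other replicates (green) and for all genes with at least 1 CPM in H1 (grey). In held-out replicates 1, 2 and 3 the bars on the left reach 37.2, 37.4 and 27.2% for the chosen genes and 1.51, 1.61 and 1.36% for all genes.

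As a measure of shifts shared by the members within a stage, the median deviation of the 73 members from the mean of their stage, on the scale of log2(CPM + 1), was between -0.07 and 0.04 in each of the 12 libraries. The genes that meet the rule turned upward, with at least 1 CPM in H4 and no sharp change left out, 87 in number, had median deviations from -0.12 to 0.08. Their lowest value was that of H4 replicate 1. In this library 41 of the 73 members lay above the stage mean, with a median deviation of 0.03, against 13 of the 87 rising genes. In 7 of the 12 libraries the members and the rising genes deviated to opposite sides. In the total scaling 85 genes fell and 87 rose at every stage before any sharp change at H4 was left out, and with the TMM scaling the numbers were 82 and 104.

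To set the members beside known pathways of the fruit, the genes with a name in the main text or primer list of the study were followed too. Many of these had been picked on the same libraries, so that their course is no independent evidence. In H4 against H1, 12 of the 42 were called lower by edgeR, 25 higher, 1 was not called and 4 had too few counts to be tested, compared with 16.4% lower and 18.1% higher over all genes. Of the 5 ethylene synthesis genes (ACS and ACO, which make the precursor and the hormone), 4 were higher and 1 was not tested, and both ethylene receptors and all 4 genes of the volatile pathway were higher as well. Of the 7 genes for AP2 and ERF factors, a group that includes transcription factors at the end of the ethylene cascade, 5 were higher and 2 were not tested. The 2 not tested, PCP016390 and ERF1 (PCP015040), had no count in any H4 library. Of the 10 auxin genes 5 were higher and 3 lower, and of the 8 cell wall genes 4 were higher and 4 lower. The 5 remaining transcription factors counted 4 lower and 1 higher. The remaining gene called lower was Md_8283 (PCP030439), which served as the qPCR reference for normalisation, with 36.2 ± 1.67 CPM in H4 and 44.0 ± 1.95 in H1 (SD, n = 3 each). Its log2 fold change was -0.20 (standard error 0.06, edgeR, BH-adjusted p = 0.030), and the call was lost without H1 replicate 1, H1 replicate 2, H4 replicate 1 or H4 replicate 3 (BH-adjusted p = 0.058 to 0.098) and with DESeq2 (0.066). The stage means declined at every stage in 11 of the 42, and these belonged to the auxin (3), cell wall (4), AP2 and ERF (1) and other transcription factor (3) lists. The same share over all genes was not computed for stage means, so nothing is read from this count. In single replicates, a fall of any size at all 3 transitions was seen in 10.1 to 12.6% of the genes at 1 CPM or more in H1. These shares come from single libraries and another set of genes, so they are no background for the 11 of 42.

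Among these 11, 3 missed only 1 condition of the rule. The auxin-induced protein PCP036703, from a family of genes that respond to the hormone, had 39.0, 46.8 and 44.0 CPM in the H1 libraries and 32.2, 34.7 and 33.1 CPM in the H2 libraries. It had 27.1, 27.0 and 30.0 CPM in those of H3, and 21.9, 20.6 and 21.4 CPM in those of H4. Its libraries were separate at each transition, but the mean in H3 was 1.19 times lower than in H2. The log2 fold change of H4 against H1 was -0.94 (approximate standard error 0.08, edgeR, BH-adjusted p = 1.3e-06). Of its single transitions, H1–H2 and H3–H4 were called (edgeR, BH-adjusted p = 0.0081 and 0.015) and H2–H3 was not (0.086). A squamosa binding protein, PCP011929, also missed only the step at H2–H3. It is of a plant family of transcription factors, and its role in ripening was not tested here.

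The means of PCP011929 were 11.4 ± 1.99 CPM in H1, 9.18 ± 0.306 in H2, 7.74 ± 0.902 in H3 and 5.58 ± 1.11 in H4 (SD, n = 3), with the step of H2–H3 at 1.19 times as well. Its log2 fold change of H4 against H1 was -0.94 (standard error 0.17, edgeR, BH-adjusted p = 0.00074). No single transition of PCP011929 was called (edgeR, BH-adjusted p = 0.32, 0.53 and 0.13). The expansin-like gene PCP039813, of proteins that loosen the cell wall during growth, had 3.47, 3.69 and 2.29 CPM in the H1 libraries and 1.83, 2.06 and 2.14 CPM in the H2 libraries. At H3 it had 1.10, 2.34 and 1.31 CPM, and at H4 0.626, 0.937 and 0.812 CPM. All 3 steps in its means were large enough, at 1.57, 1.27 and 1.997 times, but H3 replicate 2 exceeded every H2 library. Its log2 fold change of H4 against H1 was -1.89 (standard error 0.35, edgeR, BH-adjusted p = 0.001). No single transition of PCP039813 was called (edgeR, BH-adjusted p = 0.29, 0.72 and 0.10).

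The remaining 8 missed from 2 to 5 conditions, and 3 of them are given here. COBRA-like (PCP011926), which takes part in the assembly of cellulose, had means of 95.5 ± 7.38 CPM at H1, 93.4 ± 2.95 at H2, 72.8 ± 2.26 at H3 and 56.6 ± 2.63 at H4 (SD, n = 3), and its H1 and H2 libraries overlapped. Its log2 fold change of H4 against H1 was -0.67 (standard error 0.06, edgeR, BH-adjusted p = 5.3e-06). Of its single transitions, H2–H3 and H3–H4 were called (edgeR, BH-adjusted p = 0.0055 and 0.0098) and H1–H2 was not (0.82). The auxin efflux carrier PIN3 (PCP021016), which moves auxin out of cells, had means of 5.66 ± 0.832, 4.53 ± 1.14, 3.32 ± 0.487 and 2.13 ± 0.263 CPM from H1 to H4 (SD, n = 3). The H1 and H2 libraries of PIN3 overlapped, as did those of H2 and H3, and its log2 fold change of H4 against H1 was -1.32 (standard error 0.23, edgeR, BH-adjusted p = 0.00064). No single transition of PIN3 was called (edgeR, BH-adjusted p = 0.47, 0.36 and 0.12). The pectate lyase PCP016914, an enzyme that cuts pectin, was uneven within stages. It had 28.3, 12.6 and 0 CPM at H1, 6.22, 5.40 and 5.23 CPM at H2, 5.63, 0.212 and 0.237 CPM at H3, and no count in any H4 library. Its stage means declined, yet 1 library of H1 held no count, as those of H4.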

How the data were processed

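The table holds 12 single-end libraries of pear flesh. The authors removed adapters and low-quality ends (Scythe, Sickle), mapped the reads on the pear genome by HISAT2, and obtained gene values from StringTie; versions, genome build and the step to counts are not given in the sources used here. What was deposited are unscaled read counts for each gene, although the table is named for FPKM; the deposited stage columns are means of these counts (a form of estimated count) and were not used. Kit, sequencer and read length differ between the labels and the published methods. The published methods do not state whether the strand was kept. Overlapping and antisense genes may therefore not be told apart, and near-identical copies can exchange reads.

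CPM used the library totals. Genes with at least 1 CPM in 3 libraries (23155) were tested with edgeR 4.0.16 in R 4.3.3 (TMM, quasi-likelihood, 4 stages in one model, 12 libraries), tested on simulated data beforehand, with Benjamini-Hochberg adjustment over all genes and a threshold of 0.05. Approximate standard errors were obtained as |log2 fold change|/√F. Medians of log2 levels used a pseudocount of 1. Tables and figures were made in Python 3.11.15 with pandas 2.3.3 and matplotlib 3.10.9. Alternatives were TMM and median-ratio scaling, other step sizes and level minimums, no filter, DESeq2 1.42.0, the replicate number as a block, and leaving out each library. The members and lists were chosen with earlier results of these data known. Named were the members or relatives that the study names, and, without a name, the member with the highest H1 level and the one with the largest fall; for PIN3, COBRA-like, the pectate lyase and the qPCR reference the full values were chosen after they were seen. Replicates differed by more than sampling noise and were kept apart; that they are separate biological samples is taken from the paper.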

Additional observations from a re-analysis of the deposited data

How the results depend on the processing

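The number of members was 71 with TMM scaling and 73 with median-ratio scaling, and 67 of the 73 genes met the rule under each of them. It was 16 with steps of at least 1.5 times, 170 with falls of any size, 63 with at least 5 CPM in H1, 313 with overlap of libraries allowed and 85 with the sharp drops at H4 kept in. With 1 library left out it was 68 to 94, with 60 to 72 of the 73 among them. The median log2 change of H4 over H1 was -1.62 with TMM and -1.63 with median-ratio scaling, by construction, since both raise the H4 levels, and -1.79 to -1.69 with 1 library left out. The median shares of the fall were 24.7 to 27.3% at H1–H2, 26.7 to 31.1% at H2–H3 and 41.5 to 45.4% at H3–H4 with 1 library left out. Under the same omissions, 15 to 31 members were called lower at H1–H2 (1.88 to 3.13% of all genes), 15 to 36 at H2–H3 (1.24 to 2.97%), 37 to 58 at H3–H4 (6.71 to 11.1%) and 72 to 73 for H4 against H1 (13.8 to 16.8%). DESeq2 called 34, 36, 52 and 73 members, with 2.69, 2.09, 7 and 11.8% of all genes. The share of genes chosen on 2 replicates that fell at all 3 transitions in the held-out one was 37.2% for replicate 1, 37.4% for replicate 2 and, for replicate 3 with TMM scaling, 28.4%. The causes of these differences were not tested.

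Replicates carry the same numbers in each stage, and the deviations of libraries with the same number had correlations of -0.04 to 0.24 over 18 pairs (median 0.04), against -0.17 to 0.09 over 36 pairs with other numbers (median -0.01). Not every pair was positive, and the numbers were not taken as pairs. A fit that took the replicate number as a block called 24, 31, 50 and 73 members lower at H1–H2, H2–H3, H3–H4 and for H4 against H1, with 2.97, 2.18, 8.97 and 15.9% of all genes. In this fit 12 of the 42 listed genes were lower and 25 higher. Depth limits the members with few counts: at 3 counts, or 0.281 to 0.386 CPM, a further fall cannot be seen.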
